A study of Rattus norvegicus with 8 samples.

Results

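Manganese (Mn) and MPP+ (1-methyl-4-phenylpyridinium) were compared directly with each other in N27 cells, an immortalised line made from embryonic rat midbrain that the labels describe as dopaminergic. The comparison used the 2 arrays of cells given Mn at 150 µM for 48 h and the 2 arrays of cells given MPP+ at 250 µM for 48 h, which is 4 of the 8 arrays in the series. A control group (2 arrays, with no agent, vehicle or time in the labels) gave the background. A group labelled 3-NPA (2 arrays) entered only the estimate of spread and the choice of the probe that stood for a gene. All groups were the same cell line in RPMI medium. The labels do not say that replicates were separate cultures, so p-values measure the spread between arrays, which may be technical, and nothing in the labels says that the 2 doses were equally toxic. Genes were included where a probe was well above background on both arrays of Mn or on both arrays of MPP+, and 16360 genes (11629 with a symbol) were then compared.

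MPP+ is the toxic metabolite of MPTP. It enters dopaminergic neurons through the dopamine transporter, accumulates in mitochondria and inhibits respiratory complex I, and it is used to model parkinsonism. Manganese is an essential trace metal that in excess accumulates in the basal ganglia and causes a distinct parkinsonian syndrome, manganism. It enters cells through divalent metal transporters and through the iron carrier transferrin, competes with iron and calcium, and can perturb mitochondria. Several pathways read such injuries out as RNA. The integrated stress response acts through ATF4 to raise genes of amino acid supply, growth factor and ERK signalling maintain immediate early genes such as Fos and Egr1, and NF-kB drives cytokines, chemokines and adhesion molecules.

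RNA was measured on single-colour oligonucleotide arrays. Levels are given on the log2 scale, relative to each array's 75th percentile of processed signal, which is 0. From 37964 to 41013 spots were well above background on the Mn and MPP+ arrays and from 32711 to 34060 on the control arrays, and 0 spots were saturated. Replicates correlated at 0.992 (Mn) and 0.997 (MPP+) over the genes, and arrays of different toxins at 0.987 to 0.989. The median absolute difference was 0.182 between the Mn arrays, 0.0928 between the MPP+ arrays and 0.231 between the means of the toxins. Both Mn arrays lay on row 1 of the slide and both MPP+ arrays on row 2, so toxin and slide position cannot be told apart. Both control arrays also lay on row 1. MPP+ against control thus differs in slide row as well. Mn against control differs in slide column, with the control arrays in columns 1 and 2 and the Mn arrays in columns 3 and 4. Neither comparison with control can be told apart from slide position. Of the defining dopaminergic genes, tyrosine hydroxylase (Th) was well above background on every control, Mn and MPP+ array, whereas the dopamine transporter gene Slc6a3 was not on any of them.

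With MPP+ compared with Mn, 1612 genes differed at an adjusted p below 0.05 (limma, Benjamini-Hochberg adjustment), which is 9.85% of those tested. Of these, 765 were higher with MPP+ (4.68%) and 847 were higher with Mn (5.18%). These shares, and the 9.85% for either direction, are the background for the counts of called list members below. At an unadjusted p below 0.05, limma gave 4689 of the 16360 genes, the background for the unadjusted counts below. At least 2-fold differences were called for 381 genes (2.33%), 143 higher with MPP+ and 238 higher with Mn, and at least 4-fold differences for 18 and 47. For 13069 genes (79.9%) the 95% confidence interval of the difference lay within 2-fold in either direction. The median difference over all genes was 0.032, and the arrays of the toxins did not overlap for 62.5% of genes. The contrast uses the 4 arrays, but the spread comes from all 8, and the count fell to 749 without either 3-NPA array, 688 and 1003 without Mn replicate 1 and 2, and 289 and 241 without MPP+ replicate 1 and 2. Of 104 named genes that were called, 47 kept their call without each array in turn. With only 2 arrays a side, an exact permutation test of a single gene cannot go below a 2-sided p of 0.333.

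**Figure D1:**
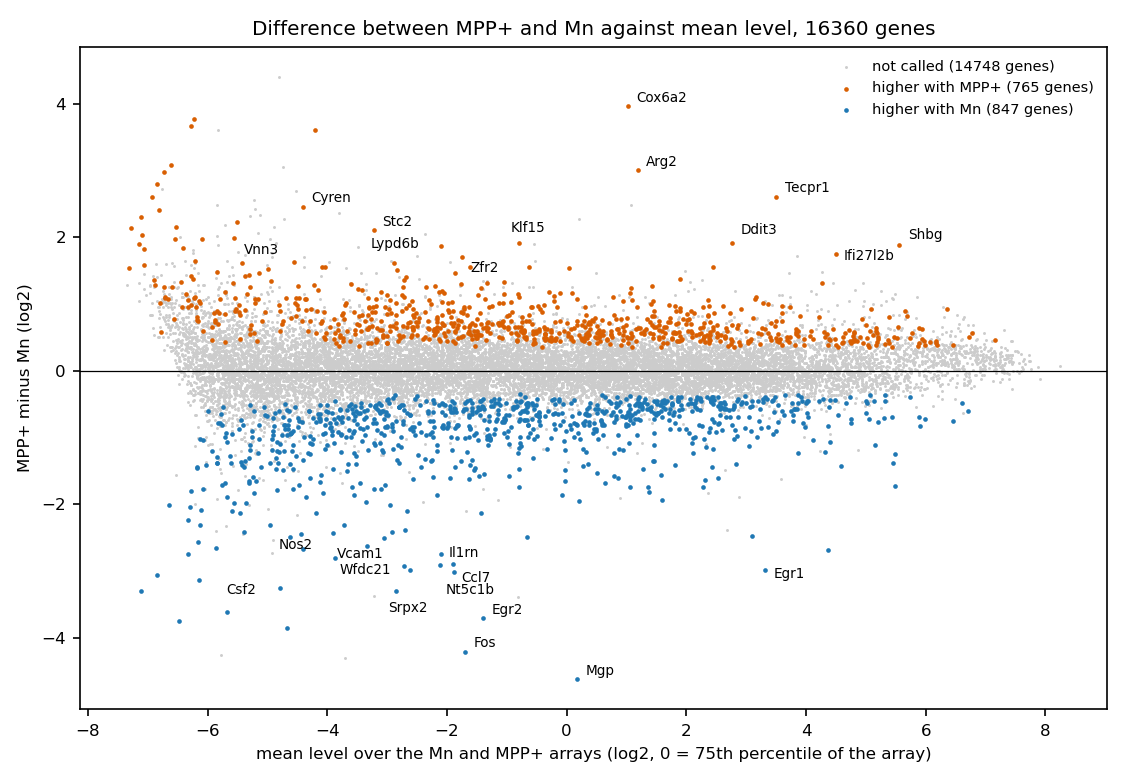
Difference between MPP+ and Mn (log2, y axis) against the mean level over the Mn and MPP+ arrays (log2, x axis) for 16360 genes; each point is 1 gene, coloured where it was called. Cox6a2 (3.96) and Mgp (-4.62) lie at the ends of the labelled genes, and more genes lie beyond -2 than beyond 2 among those called.

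Differences below are MPP+ minus Mn on the log2 scale with their standard error, from 2 arrays per group, and a positive value means higher with MPP+. The largest differences among genes measured on all arrays of both toxins, with arrays that did not overlap, were as follows. Cox6a2, the heart and muscle form of a cytochrome c oxidase subunit, was read by a probe at chr1:187464580-187464639 (minus strand, rn4 positions as the array files give them). It was at -3.19 and -3.34 in control, -0.73 and -1.18 with Mn, and 2.99 and 3.02 with MPP+. It was high on both MPP+ arrays, intermediate with Mn and low in control, and the toxins differed by 3.96 ± 0.16 (15.6-fold, adjusted p = 0.000673). Matrix Gla protein (Mgp), a secreted inhibitor of calcification, had the largest difference in the other direction, by a probe at chr4:173910827-173910886 (minus strand). Its level was -1.16 and -1.35 in control, 2.63 and 2.33 with Mn, and -2.15 and -2.13 with MPP+. Here the Mn arrays stood high and the MPP+ arrays lay below control, a difference of -4.62 ± 0.13 (adjusted p = 0.00026).

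The other genes in this group that were higher with MPP+ differed by 1.63 to 3.01, and the control lay between the toxins for 6 of the 12. They were the mitochondrial arginase Arg2 (3.01 ± 0.09), Tecpr1, which acts in autophagosome maturation (2.61 ± 0.19), Cyren (2.46 ± 0.19), the secreted glycoprotein Stc2 (2.11 ± 0.22), the transcription factors Klf15 (1.92 ± 0.12) and Ddit3 (1.92 ± 0.11), Shbg (1.88 ± 0.21), Lypd6b (1.87 ± 0.09), Ifi27l2b (1.75 ± 0.13), Zfr2 (1.70 ± 0.11) and Vnn3 (1.63 ± 0.10). Not all of them rose with MPP+. Lypd6b was at -0.99 and -1.01 in control, -2.94 and -3.12 with Mn and -1.13 and -1.18 with MPP+, so that the MPP+ arrays lay near control and the Mn arrays below it. Tecpr1 was at 3.27 and 3.64 in control, 2.35 and 2.04 with Mn and 4.84 and 4.77 with MPP+, on opposite sides of control. The call for Stc2 was lost without MPP+ replicate 2 (adjusted p = 0.0517), that for Shbg without either MPP+ array (highest adjusted p = 0.054), and that for Lypd6b with the mean over its probes (0.98, adjusted p = 0.13).

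The 12 genes with the largest differences in the direction of Mn differed by -2.80 to -4.62, and each kept its call under every alternative. Besides Mgp they were the immediate early genes Fos, Egr2 and Egr1, the secreted protein gene Srpx2 (-3.30 ± 0.15), Csf2 for the cytokine GM-CSF (-3.25 ± 0.24), the nucleotidase Nt5c1b (-3.01 ± 0.11), Wfdc21 (-2.99 ± 0.28), the adhesion molecule Vcam1 (-2.93 ± 0.20), the interleukin 1 receptor antagonist Il1rn (-2.91 ± 0.18), the chemokine Ccl7 (-2.89 ± 0.14) and inducible nitric oxide synthase, Nos2 (-2.80 ± 0.20). The control lay between the toxins for 8 of the 12. Srpx2 was at -5.06 and -4.80 in control, where it was not well above background, -1.06 and -1.34 with Mn and -4.57 and -4.42 with MPP+. Nt5c1b was at -1.10 and -1.31 in control, -0.39 and -0.38 with Mn and -3.33 and -3.45 with MPP+. Srpx2 was thus high with Mn alone, whereas Nt5c1b, like Mgp, was called above control with Mn (0.82, adjusted p = 0.0111) and below it with MPP+ (-2.19, adjusted p = 0.000619).

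Some genes were dim on both arrays of 1 toxin, and for them only a lower bound of the difference can be given, taken against the lowest signal well above background. There were 90 such genes among those called. Ctsw, which encodes the protease cathepsin W, was at -2.65 and -2.84 with Mn and not well above background with MPP+, at least 14.2-fold higher with Mn (adjusted p = 0.00026). Depp1 was at least 7.20-fold, Wnt2, a secreted signalling protein gene, at least 5.21-fold and Rprml at least 4.53-fold higher with Mn. In the direction of MPP+, Kctd19 was at least 3.18-fold and G0s2, an inhibitor of lipolysis, at least 2.73-fold higher, with smaller bounds for Spink4 (1.43 on the log2 scale) and Wdr7 (1.02). These bounds hold for the background correction used. With the normexp correction the differences of dim genes shrank below them, on the log2 scale to -1.79 for Ctsw, -1.20 for Depp1, -0.86 for Wnt2, -0.81 for Rprml, 0.49 for Kctd19, 0.41 for G0s2, 0.28 for Spink4 and 0.23 for Wdr7, and the calls of Spink4 and Wdr7 were lost. Csf2 and Cyren, given above, shrank to -1.54 and 0.89. G0s2, Rprml and Wdr7 lost their calls with the deposited value table (adjusted p = 0.407, 0.492 and 0.223), G0s2, Spink4 and Wdr7 without either MPP+ array, and Wdr7 also without either Mn array. Ctsw, Depp1, Wnt2 and Kctd19 kept their calls under every alternative that gave a value.

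Genes of the integrated stress response were higher with MPP+. In this response, phosphorylation of the translation factor eIF2 favours synthesis of the transcription factor ATF4, which with partners such as CHOP (Ddit3) raises genes for amino acid uptake, amino acid synthesis and tRNA charging, together with feedback genes such as Trib3. Of 20 transcription factors and feedback genes of the response that were tested, 10 were higher with MPP+ and 0 with Mn. This is 50% of them, beside 9.85% of all genes, and their median difference was 0.58. At an unadjusted p below 0.05, limma gave 14 and 1. Atf4 was at 5.05 and 5.18 in control, 5.44 and 5.53 with Mn and 6.01 and 6.10 with MPP+, which gave a difference of 0.57 ± 0.10 (adjusted p = 0.0213). Ddit3 was at 1.28 and 1.24 in control, 1.95 and 1.67 with Mn and 3.72 and 3.73 with MPP+ (1.92 ± 0.11, adjusted p = 0.00136). Trib3, a pseudokinase induced by ATF4 and CHOP, was at -0.29 and -0.13 in control, 1.80 and 1.52 with Mn and 3.26 and 3.18 with MPP+ (1.56 ± 0.13, adjusted p = 0.00285). For all 3 genes the arrays stood in the order control, Mn, MPP+ with no overlap. Sesn2, a leucine-sensing inhibitor of mTORC1, followed the same order, at -4.16 on both control arrays, -3.13 and -2.81 with Mn and -1.94 and -1.50 with MPP+ (1.25 ± 0.18, adjusted p = 0.0142).

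Not every gene of the response separated the toxins. Atf3, a stress-induced repressor, was at 2.36 and 2.23 with Mn and 2.34 and 2.35 with MPP+, and its difference of 0.05 had a 95% interval of -0.17 to 0.27. The mTORC1 inhibitor gene Ddit4 was at 2.04 and 2.24 with Mn and 2.07 and 2.27 with MPP+ (0.03, interval -0.24 to 0.31). Both lay above control with each toxin, by 0.45 and 0.50 for Atf3 and by 0.62 and 0.66 for Ddit4. Ppp1r15a, which directs dephosphorylation of eIF2, differed by 0.27 ± 0.10 (adjusted p = 0.154) and Gdf15, a stress-induced hormone, by 0.23 ± 0.25 (adjusted p = 0.583). Against control, in comparisons that share the control arrays, 10 of the 20 genes were higher with Mn (4.74% of all genes) and 15 with MPP+ (8% of all genes). Over all genes, Mn gave 7.65% of calls in either direction against control and MPP+ 14.3%. The count of 10 became 8 without either 3-NPA array, 5 without either Mn array, 4 and 2 without MPP+ replicate 1 and 2, and 13 without either control array. Ddit3 and Trib3 kept their calls throughout, whereas Atf4 lost its call without any single Mn, MPP+ or 3-NPA array.

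**Figure D2:**
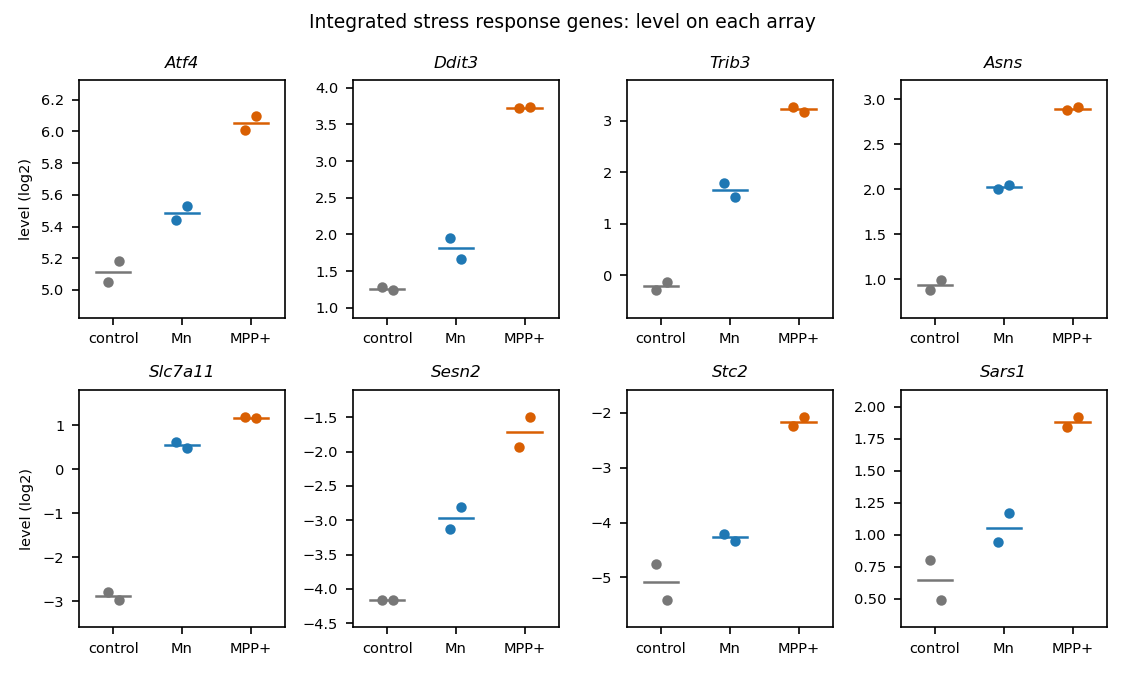
Level on each array (log2, 0 is the 75th percentile of the array) of 8 integrated stress response genes; points are arrays, 2 per group, and bars are group means. Each panel has its own y axis, and in all of them both MPP+ arrays lie above both Mn arrays, as for Trib3 (1.80 and 1.52 with Mn, 3.26 and 3.18 with MPP+). The genes shown are all among those called higher with MPP+, and members that did not separate the toxins, such as Atf3 and Ddit4, are left out.

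Amino acid transport and synthesis genes, the targets of the response, were also higher with MPP+. Of 12 transporters tested, 7 were higher with MPP+ and 1 with Mn (median 0.58). The cationic amino acid transporter Slc7a3 was at -0.81 on both control arrays, 1.4 and 1.03 with Mn and 2.65 and 2.52 with MPP+, a difference of 1.37 ± 0.14 (adjusted p = 0.00417). Slc7a5, which imports large neutral amino acids, was at -2.08 and -2.37 in control, -2 and -1.80 with Mn and -0.93 and -0.74 with MPP+ (1.07 ± 0.14, adjusted p = 0.0106). Slc7a11, the cystine importer that supplies glutathione synthesis, was higher than control with both toxins. It was at -2.78 and -2.97 in control, 0.61 and 0.49 with Mn and 1.18 and 1.16 with MPP+, so that it lay 3.43 above control with Mn and 4.04 with MPP+ and differed between them by 0.62 ± 0.10 (adjusted p = 0.0211). The exception was Slc7a8, another neutral amino acid transporter, at -1.06 and -1.28 with Mn and -1.73 and -1.74 with MPP+ (-0.57 ± 0.10, adjusted p = 0.0237). Slc7a3 kept its call without each array. Slc7a11 lost its call without any single Mn, MPP+ or 3-NPA array, and Slc7a8 without Mn replicate 1 or any single MPP+ or 3-NPA array. The count of 7 was 2 without either 3-NPA or either Mn array and 1 without either MPP+ array.

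Among 16 enzymes of amino acid synthesis and one-carbon metabolism, 8 were higher with MPP+ and 0 with Mn (median 0.59), or 10 and 2 by limma at an unadjusted p below 0.05. Asparagine synthetase (Asns) was at 0.88 and 0.99 in control, 2.00 and 2.05 with Mn and 2.88 and 2.91 with MPP+ (0.87 ± 0.09, adjusted p = 0.00533). The serine pathway enzyme Psph was at 1.13 on both control arrays, 1.4 and 1.46 with Mn and 2.46 and 2.28 with MPP+ (0.94 ± 0.10, adjusted p = 0.00602). Shmt2, which moves the serine carbon into the mitochondrial folate cycle, was at 2.78 and 2.66 with Mn and 3.53 and 3.48 with MPP+ (0.79 ± 0.10, adjusted p = 0.00835). Psph and Shmt2 lay 1.24 and 0.90 above control with MPP+ (adjusted p = 0.00234 and 0.00424), while with Mn they lay 0.30 and 0.12 above it (adjusted p = 0.139 and 0.491). Phgdh, Mthfd2, Aldh18a1, Got1 and Gpt2 were the other enzymes called. The count of 8 was 3 without either 3-NPA array, 5 without either Mn array, and 0 and 1 without MPP+ replicate 1 and 2.

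Of 20 cytosolic aminoacyl-tRNA synthetases, which charge tRNAs with their amino acids, 8 were higher with MPP+ and 0 with Mn (median 0.39), or 13 and 0 by limma at an unadjusted p below 0.05. The largest difference among them was 0.90 (Yars1). Eprs1 was at 3.66 and 3.56 in control, 4.08 and 4.21 with Mn and 4.72 and 4.81 with MPP+ (0.62 ± 0.10, adjusted p = 0.0162). Sars1 was at 0.80 and 0.49 in control, 0.94 and 1.17 with Mn and 1.84 and 1.92 with MPP+ (0.82 ± 0.14, adjusted p = 0.0197). Vars1 differed by 0.66 ± 0.12, Aars1 by 0.57 ± 0.10 and Mars1 by 0.51 ± 0.09, whereas Farsa (0.04 ± 0.08), Qars1 (0.10 ± 0.09) and Kars1 (0.15 ± 0.09) were not called and their intervals lay within 2-fold. These differences are small, and the count fell to 2 without either 3-NPA array, to 0 without Mn replicate 1 or either MPP+ array, and to 5 without Mn replicate 2.

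Promoters of these genes were searched for the response element bound by ATF4 with C/EBP partners, spelled TGATGNAA, on both strands of the RefSeq window from 250 bases before to 50 bases after the start of each gene (GRCr8 assembly). The table held a promoter for 56 of the 68 tested members of these 4 lists, and 17 of them (30.4%) had a match, compared with 3.82% of all 27457 promoters. The synthetases had a match in 7 of 17 and the factors and feedback genes in 5 of 16. Among genes with a match, Chac1, Fgf21, Pycr1, Cars1, Iars1 and Tars1 were not called between the toxins (adjusted p = 0.053 to 0.124). A match is only a description of the letters. The stretches below show it in 3 genes called higher with MPP+, with the match in capitals as it reads on the gene's strand. They lie at chr3:161275534-161275569 (minus strand), chr1:190645934-190645971 (minus) and chr7:65023754-65023785 (minus).
Trib3: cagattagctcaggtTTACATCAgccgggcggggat
Nupr1: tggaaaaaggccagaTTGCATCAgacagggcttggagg
Mars1: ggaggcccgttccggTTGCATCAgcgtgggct
Mars1 and Nupr1 hold the same 8 letters and Trib3 differs from them at 1 letter, the position written N. Nupr1, a stress-induced chromatin protein, was at -2.14 and -2.36 in control, -1.46 and -1.47 with Mn and -0.82 and -0.76 with MPP+ (0.68 ± 0.10, adjusted p = 0.0148).

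Immediate early genes, which growth factor and calcium signals induce within minutes and which encode mainly transcription factors, were lower with MPP+ than with Mn. Of 25 tested, 15 were higher with Mn and 0 with MPP+, with a median difference of -0.84, and at an unadjusted p below 0.05 limma gave 18 and 0. Fos was at 0.71 and 0.65 in control, 0.66 and 0.16 with Mn and -3.66 and -3.95 with MPP+ (-4.21 ± 0.19, adjusted p = 0.000721). The Mn arrays of Fos lay near control and the MPP+ arrays far below both. Egr1 was at 4.20 and 4.02 in control, 5 and 4.61 with Mn and 1.93 and 1.72 with MPP+ (-2.98 ± 0.16, adjusted p = 0.00102). Egr2, a relative of Egr1, was at -0.39 and -0.55 in control, 0.75 and 0.17 with Mn and -3.22 and -3.28 with MPP+ (-3.71 ± 0.19, adjusted p = 0.000944). Ier2 was at 5.17 and 4.85 in control, 5.80 and 5.61 with Mn and 3.09 and 2.93 with MPP+ (-2.69 ± 0.14, adjusted p = 0.000944). For Egr2 and Ier2 the control lay between the toxins, with Mn above it by 0.93 and 0.70 (adjusted p = 0.0413 and 0.0376) and MPP+ below it by more than either.

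Junb, an AP-1 subunit, differed by -1.73 ± 0.13, and the neuronal early gene Arc by -1.62 ± 0.15. The YAP target genes Ccn1 and Ccn2, which encode secreted matricellular proteins, differed by -1.61 ± 0.13 and -1.82 ± 0.14. Ccn2 had another pattern than Fos, at 0.33 and 0.12 in control, 2.44 and 2.14 with Mn and 0.41 and 0.53 with MPP+, high with Mn alone. Fosl1, an AP-1 subunit that accumulates with sustained ERK signalling, lay above control with both toxins, by 1.97 with Mn and 1.65 with MPP+, and differed between them by -0.32 (95% interval -0.75 to 0.11). Klf4 (-0.06 ± 0.14), Nr4a3 (0.22 ± 0.19) and Fosl2 (0.24 ± 0.16) were not called. Against control, 8 of the 25 were higher and 0 lower with Mn, beside 4.74% and 2.92% of all genes. With MPP+, 2 were higher and 11 lower, beside 8% and 6.25% of all genes. The count of 15 was 9 without either MPP+ array, and Fos, Egr1, Egr2 and Ier2 kept their calls without each array.

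Feedback genes of the ERK pathway, whose products dampen the signal that induces them, were in part higher with Mn. Of 16 tested, 6 were higher with Mn and 1 with MPP+ (median -0.57). The ERK phosphatase Dusp6 was at 1.05 and 1.03 in control, 3.32 and 2.98 with Mn and 1.33 and 1.47 with MPP+ (-1.75 ± 0.13, adjusted p = 0.00197). Errfi1, an inhibitor of the EGF receptor, was at 2.55 and 2.62 in control, 3.69 and 3.55 with Mn and 2.48 and 2.49 with MPP+ (-1.13 ± 0.09, adjusted p = 0.00225). Dusp1, a phosphatase of stress kinases, was instead low with MPP+, at -2.29 and -2.16 in control, -2.63 and -2.80 with Mn and -4.55 and -4.35 with MPP+ (-1.74 ± 0.12, adjusted p = 0.00167). The Ets factor Etv4 and the phosphatase gene Dusp4 did not separate the toxins, at -0.11 (interval -0.40 to 0.19) and 0.12 (interval -0.24 to 0.47). Spry1, a receptor tyrosine kinase inhibitor, was the member higher with MPP+ (0.55 ± 0.10), a call that was lost without any single Mn, MPP+ or 3-NPA array. Dusp6, Errfi1 and Dusp1 kept theirs, and the count of 6 fell to 4 without MPP+ replicate 1.

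The CArG box, the site of serum response factor, was found in 4 of 17 immediate early promoters (23.5%), in 1 of 13 ERK feedback promoters (7.69%) and in 1.64% of all promoters, in the same windows and on both strands, and being close to symmetric it is usually read on both strands at once. Of the 4 immediate early genes, Klf6 (adjusted p = 0.214) and Srf (adjusted p = 0.0592) were not called between the toxins. The cyclic AMP response element TGACGTCA was found in 4 of 17 (23.5%) against 1.91% of all, and of these 4 genes Jund was not called (adjusted p = 0.0668). Here too, a match is only a description of the letters. The stretches below show the boxes of Egr1 (chr18:26736958-26737019, plus strand) and Egr2 (chr20:21054500-21054539, minus), which carry the CArG match in capitals, and of Ier2 (chr19:40399292-40399329, plus), where the capitals mark TGACGTCA.
Egr1: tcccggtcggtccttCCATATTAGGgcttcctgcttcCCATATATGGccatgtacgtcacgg
Egr2: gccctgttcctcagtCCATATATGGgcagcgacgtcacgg
Ier2: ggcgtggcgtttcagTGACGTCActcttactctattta
Egr1 holds 2 separate boxes, at -105 to -96 and -83 to -74 from the gene's start, and the nearer one and the box of Egr2 have the same letters and the same distance.

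Inflammatory genes were higher with Mn. NF-kB is held inactive by inhibitor proteins that are themselves among its targets, and when released it raises chemokines, cytokines and adhesion molecules. Of 28 genes tested, 19 were higher with Mn and 0 with MPP+ (median -0.95), or 24 and 0 by limma at an unadjusted p below 0.05. The neutrophil chemokine Cxcl2 was at 2.45 and 2.59 in control, 4.46 and 4.20 with Mn and 1.95 and 1.75 with MPP+ (-2.48 ± 0.13, adjusted p = 0.000944). Cxcl1, a neighbour of the same family, was at 4.07 and 4.23 in control, 5.31 and 5.28 with Mn and 3.85 and 3.88 with MPP+ (-1.43 ± 0.09, adjusted p = 0.00141). Ccl7, which attracts monocytes, was at -1.58 and -1.34 in control, -0.55 and -0.37 with Mn and -3.22 and -3.46 with MPP+ (-2.89 ± 0.14, adjusted p = 0.00083). Cxcl2 and Ccl7 thus lay above control with Mn (by 1.80 and 1.00) and below it with MPP+ (by -0.67 and -1.88), each past the test, while for Cxcl1 the difference of MPP+ from control, -0.28, was not called.

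Vcam1, which binds leukocyte integrins, was at -3.81 and -3.26 in control, -1.11 and -1.40 with Mn and -4.12 and -4.25 with MPP+ (-2.93 ± 0.20, adjusted p = 0.00167). Prostaglandin synthase Ptgs2 was at -2.97 and -3.31 in control, -0.58 and -0.88 with Mn and -3.08 and -3.86 with MPP+ (-2.74 ± 0.30, adjusted p = 0.00598). Csf2 was at -7.03 and -6.71 in control, not well above background, -3.28 and -3.03 with Mn and -6.59 and -6.23 with MPP+. These genes were high on the Mn arrays alone. Csf3, for the cytokine G-CSF, lay above control with both, at 2.95 on both control arrays, 5.09 and 4.78 with Mn and 3.92 and 3.81 with MPP+ (-1.07 ± 0.12, adjusted p = 0.00717). The inhibitor gene Nfkbia was at 4.70 and 4.58 in control, 4.68 and 4.64 with Mn and 4.20 and 4.04 with MPP+ (-0.54 ± 0.12, adjusted p = 0.0392), with Mn at the level of control and MPP+ below it.

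Members that were not called included Icam1 (-0.31 ± 0.09, adjusted p = 0.0909), Lcn2 (-0.37 ± 0.12), Sod2 (-0.36 ± 0.13) and Tnf, which was not well above background on either MPP+ array (adjusted p = 0.0562). Il6 and Il1b were not well above background on any of these arrays and were not tested. Against control, 14 of the 28 were higher and 0 lower with Mn, beside 4.74% and 2.92% of all genes. With MPP+, 3 were higher and 4 lower, beside 8% and 6.25% of all genes. Cxcl1, Cxcl2, Ccl7, Vcam1 and Csf2 kept their calls without each array. The count of 19 was 10 without either MPP+ array and 14 to 18 without any other single array. Markers of microglia were examined beside these genes, since microglia make the same cytokines. Of 8 tested, 1 (12.5%, beside 9.85% of all genes), Cd68, was higher with Mn (-1.28 ± 0.18, adjusted p = 0.0117). The summed level of the 8 was 1.09 on both Mn arrays and 0.778 to 0.787 on the MPP+ arrays relative to the 75th percentile. The defining markers C1qa, C1qc, Ptprc and Trem2 were not well above background on both arrays of either toxin. The call of Cd68 was lost without Mn replicate 1 or either MPP+ array. The part of such cells in the result was not tested.

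A site of the NF-kB kind was found in the promoter window of 12 of 21 of these genes (57.1%) and in 7.60% of all promoters. The list was drawn up as NF-kB and inflammatory genes, so its higher share does not bear on the difference between the toxins. Among genes with a site, Ccl20, Lcn2 and Nfkb1 were not called between the toxins (adjusted p = 0.235, 0.114 and 0.0534). The stretches below show it in 4 chemokine and adhesion genes named above, in capitals, at chr10:67514021-67514060 (plus strand), chr14:17479380-17479420 (minus), chr14:17467304-17467344 (minus) and chr2:206742852-206742891 (minus).
Ccl7: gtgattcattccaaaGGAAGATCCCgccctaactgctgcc
Cxcl1: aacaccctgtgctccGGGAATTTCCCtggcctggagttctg
Cxcl2: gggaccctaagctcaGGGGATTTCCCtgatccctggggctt
Vcam1: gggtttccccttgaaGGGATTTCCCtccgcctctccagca
All 4 stretches lie within 108 bases before the gene's start.

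Of 30 interferon-responsive genes tested, 11 were higher with Mn, 1 was higher with MPP+ and 18 were not called (median -0.36). Irf7, the transcription factor that amplifies interferon production, was at 0.16 and 0.14 in control, 0.74 on both Mn arrays and -0.27 and -0.29 with MPP+ (-1.02 ± 0.08, adjusted p = 0.00213). Oasl2, an antiviral protein of the oligoadenylate synthetase family, was at 1.22 and 1.02 in control, 1.56 and 1.59 with Mn and 0.54 and 0.45 with MPP+ (-1.08 ± 0.10, adjusted p = 0.00366). Isg15, a ubiquitin-like modifier, was at 2.74 and 2.67 in control, 2.79 and 2.89 with Mn and 1.91 and 1.94 with MPP+ (-0.92 ± 0.09, adjusted p = 0.00371). Bst2, which tethers virus particles to the cell, went the other way, at 2.74 and 2.47 with Mn and 3.73 and 3.71 with MPP+ (1.11 ± 0.12, adjusted p = 0.00534). Stat2, which carries the interferon signal, did not separate the toxins by 2-fold (-0.03, interval -0.24 to 0.18). The count of 11 was 8 without either 3-NPA or either Mn array, and 5 and 4 without MPP+ replicate 1 and 2, and Irf7 and Oasl2 kept their calls without each array. The call of Bst2 was lost without either MPP+ array.

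**Figure D3:**
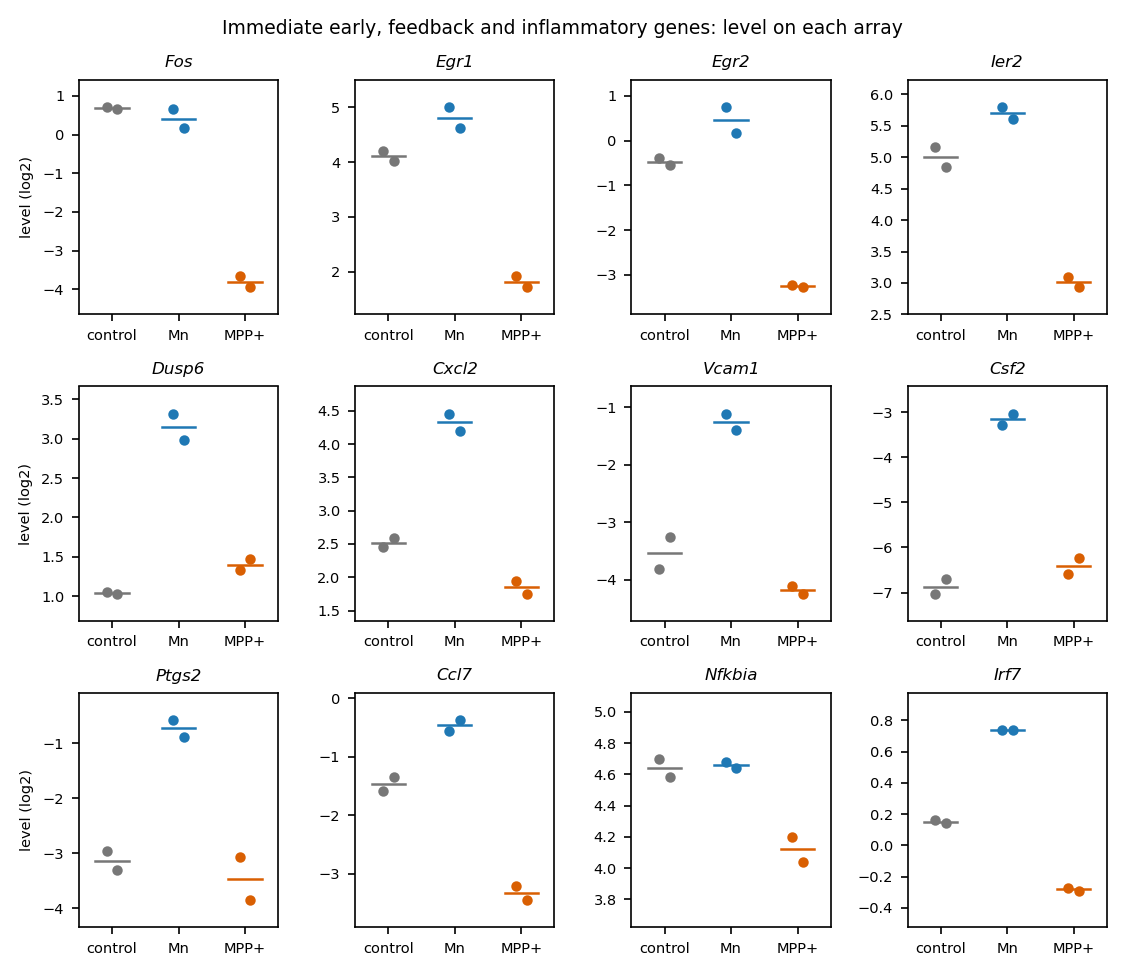
Level on each array (log2, 0 is the 75th percentile of the array) of 12 immediate early, ERK feedback, inflammatory and interferon-responsive genes; points are arrays, 2 per group, bars are group means, and each panel has its own y axis. The genes shown are all among those called higher with Mn, so in every panel both Mn arrays lie above both MPP+ arrays. Members that were not called, such as Fosl1, Klf4 and Etv4, are left out. Fos falls below control with MPP+ (-3.66 and -3.95), whereas Dusp6 and Csf2 stand above control with Mn.

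Extracellular matrix genes and their proteases were mostly higher with Mn where they differed, 11 of 24, Mgp and Srpx2 among them, against 1 higher with MPP+ (median -0.43). Type I collagen (Col1a1) was at -0.54 and -0.68 in control, 0.13 and 0.03 with Mn and -1.60 and -1.75 with MPP+ (-1.75 ± 0.10, adjusted p = 0.00132). Type III collagen (Col3a1) was low with MPP+, at -3.68 and -3.56 in control, -4.20 and -4.09 with Mn and -5.61 and -5.43 with MPP+ (-1.38 ± 0.15, adjusted p = 0.00598). The protease inhibitor Timp1 was at 5.44 and 5.42 in control, 5.70 and 5.72 with Mn and 4.61 and 4.57 with MPP+ (-1.11 ± 0.08, adjusted p = 0.00175). The collagenase gene Mmp13 differed by -1.60 ± 0.16. Tenascin C (Tnc) was the member higher with MPP+ (0.97 ± 0.16, adjusted p = 0.0196), and Timp2 (0.09, interval -0.11 to 0.29) and Col4a1 (-0.04, interval -0.42 to 0.33) lay within 2-fold. The count of 11 was 7 without MPP+ replicate 1, where Col3a1 and Tnc lost their calls.

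Fibroblast and muscle markers, a list that shares Col1a1, Col3a1 and Col1a2 with the matrix list, moved with it. Of 8 tested, 5 were higher with Mn (Col1a1, Acta2, Col3a1, S100a4 and Tagln, median -0.95 over the 8), and their summed level was 15.8 to 19.2 on the Mn arrays, 8.75 to 8.87 on the MPP+ arrays and 12.6 to 13.5 in control. Acta2, smooth muscle actin, was at -2.88 and -2.81 in control, -1.75 and -1.87 with Mn and -2.74 and -2.78 with MPP+. The fibroblast markers Dcn, Lum and Thy1 were not well above background on both arrays of either toxin, and the count of 5 was 2 and 3 without MPP+ replicate 1 and 2. Whether cells of another kind had a part in the matrix result was not tested. Genes of TGF-beta, BMP and Notch feedback separated in both directions, with 6 of 14 higher with Mn and 2 higher with MPP+. In all 57.1% were called, beside 9.85% of all genes (median -0.42). Id1, a BMP target, was at 4.64 and 4.81 in control, 4.42 and 4.39 with Mn and 3.59 and 3.53 with MPP+ (-0.84 ± 0.09, adjusted p = 0.00642). The ligand Tgfb2 was higher with Mn (-1.22 ± 0.17, adjusted p = 0.0119) and the ligand Tgfb3 higher with MPP+ (1.04 ± 0.15, adjusted p = 0.0142). The count of 6 was 3 without either 3-NPA array and 1 without Mn replicate 1 or either MPP+ array.

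Enzymes that share the substrate arginine were split between the toxins. Nitric oxide synthases make nitric oxide and citrulline from arginine, arginases split it to urea and ornithine, the precursor of polyamines, and argininosuccinate synthase (Ass1) takes part in remaking it from citrulline. Nos2 was at -6.12 and -6.69 in control, not well above background, -2.49 and -2.45 with Mn and -5.16 and -5.38 with MPP+ (-2.80 ± 0.20, adjusted p = 0.00175), so it was high with Mn. Ass1 was at 1.92 and 1.91 in control, 3.55 and 3.50 with Mn and 2.16 and 2.11 with MPP+ (-1.40 ± 0.08, adjusted p = 0.00132). Arg1, the cytosolic arginase, was at -1.11 and -0.88 in control, 1.01 and 0.73 with Mn and -1.03 and -0.99 with MPP+ (-1.87 ± 0.13, adjusted p = 0.00169). The mitochondrial arginase Arg2 had the opposite pattern, at 0.34 and 0.33 in control, -0.40 and -0.23 with Mn and 2.65 and 2.73 with MPP+ (3.01 ± 0.09, adjusted p = 0.00026). Its Mn arrays lay below control (-0.65, adjusted p = 0.0148) and its MPP+ arrays above it (2.36, adjusted p = 0.000449). Of 14 polyamine and arginine genes tested, which leave out Nos2, 3 were higher with MPP+ (Arg2, the ornithine decarboxylase Odc1 at 0.47 ± 0.08 and the spermidine synthase Srm at 0.57 ± 0.12) and 2 with Mn. Without any single Mn, MPP+ or 3-NPA array, 1 of these 3 stayed called, while the calls of Arg1 and Ass1 numbered 2 throughout.

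**Figure D4:**
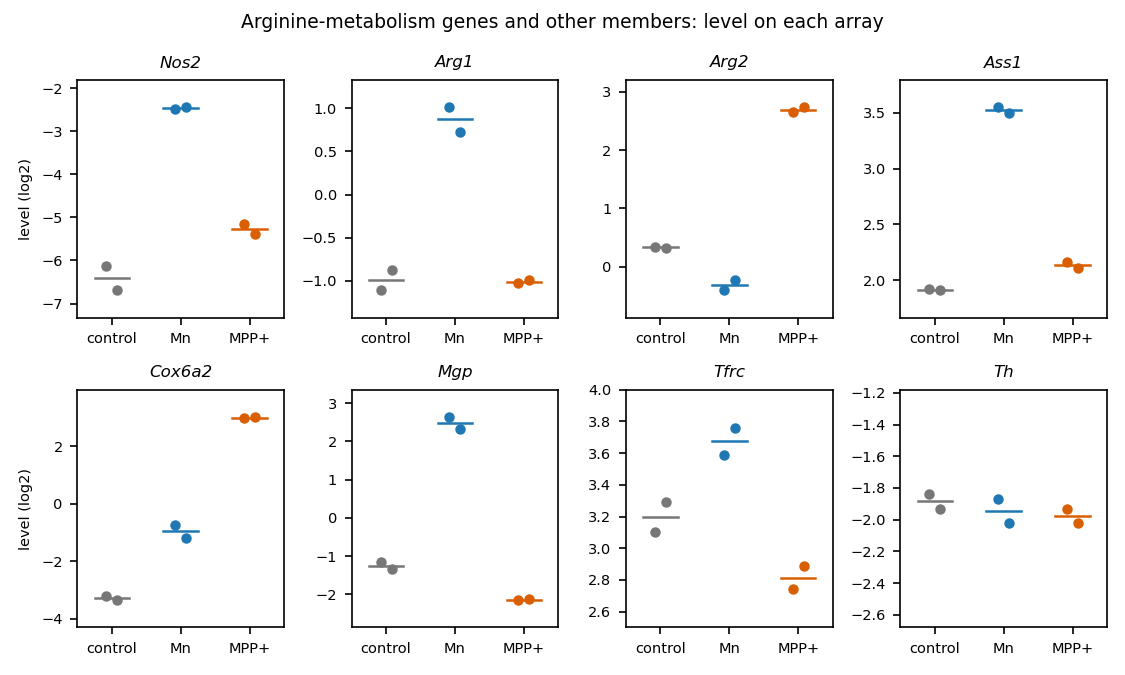
Level on each array (log2, 0 is the 75th percentile of the array) of Nos2, Arg1, Arg2, Ass1, Cox6a2, Mgp, Tfrc and Th; points are arrays, 2 per group, bars are group means, and each panel has its own y axis spanning at least 1.5. Nos2, Arg1, Ass1 and Mgp are high on the Mn arrays, Arg2 and Cox6a2 on the MPP+ arrays, and the arrays of Th overlap across the groups.

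Genes of the respiratory chain, the site where MPP+ acts, hardly separated the toxins at the level of RNA. Of 36 complex I subunits, 1 (Ndufa7, -0.46 ± 0.09, adjusted p = 0.0366) was called, and for 35 the 95% interval lay within 2-fold. The core subunit Ndufs1 was at 1.92 and 2.09 in control, 2.08 and 1.95 with Mn and 2.26 and 2.18 with MPP+ (0.21 ± 0.10, adjusted p = 0.248). None of 30 genes of complexes II and III and ATP synthase was called by limma, and all 30 intervals lay within 2-fold, with Sdha of complex II at 0.28 ± 0.09. The list medians, 0.06 and 0.08, turned to -0.01 and -0.02 with quantile normalization. At an unadjusted p below 0.05 there were 4 complex I genes and 9 of the other 30, beside 4689 of all 16360 genes. Ndufa7, and Cox7a2l named next, lost their calls without any single Mn, MPP+ or 3-NPA array. Among 14 cytochrome c oxidase genes, Cox6a2 (above) and Cox7a2l, which helps join complexes into supercomplexes (0.50 ± 0.09, adjusted p = 0.0269), were called (14.3%, beside 9.85% of all genes). Cox6a1, the widely expressed counterpart of Cox6a2, was at 7.46 and 7.20 with Mn and 7.49 and 7.55 with MPP+ (0.19 ± 0.12, adjusted p = 0.355).

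Matrix enzymes of the mitochondrion were higher with MPP+ in part. Of 21 genes of pyruvate dehydrogenase and the citric acid cycle, 5 were higher with MPP+ and 0 with Mn (23.8% called, median 0.38). At an unadjusted p below 0.05, limma gave 12 and 0. The 5 were Dld (0.55 ± 0.10), Idh3a (0.49 ± 0.09), Dlat (0.54 ± 0.11), Suclg1 (0.46 ± 0.10) and pyruvate carboxylase, Pc (0.58 ± 0.12). Dld, a subunit shared by the pyruvate and 2-oxoglutarate dehydrogenases, was at 3.13 and 3.34 in control, 2.99 and 2.95 with Mn and 3.53 and 3.52 with MPP+, with control between the toxins. The count of 5 was 0 without either 3-NPA or either MPP+ array, and 1 and 2 without Mn replicate 1 and 2. Of 18 mitochondrial chaperones and proteases, 3 were higher with MPP+ and 0 with Mn (16.7% called, beside 9.85% of all genes). The matrix protease Lonp1 was at 3.77 and 3.56 in control, 3.42 and 3.80 with Mn and 4.86 and 4.98 with MPP+ (1.31 ± 0.16, adjusted p = 0.00789). Hspa9, the mitochondrial HSP70, was at -0.37 and -0.62 in control, -0.35 and -0.37 with Mn and 0.73 and 0.69 with MPP+ (1.07 ± 0.11, adjusted p = 0.00466). For both, MPP+ stood above control and Mn, whose levels lay close together. Hspa9 kept its call without each array and Lonp1 lost it without either MPP+ array. Hspd1, the mitochondrial HSP60, was at 0.46 ± 0.12 and not called (adjusted p = 0.0598).

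Glycolysis and hypoxia-responsive genes differed in a few members. Of 27 genes of glucose transport, glycolysis and lactate, 3 were higher with Mn and 1 with MPP+ (14.8% called, beside 9.85% of all genes, median -0.05). The lactate exporter Slc16a3 was at 6.08 and 6.20 in control, 5.83 and 5.76 with Mn and 5.07 and 5.13 with MPP+ (-0.69 ± 0.09, adjusted p = 0.00932). The glucose transporter Slc2a1 was at 2.85 and 2.76 in control, 3.10 and 3.05 with Mn and 2.5 and 2.51 with MPP+ (-0.57 ± 0.08, adjusted p = 0.0147). Lactate dehydrogenase Ldha was not called (-0.63 ± 0.17, adjusted p = 0.068), though it passed the threshold in 5 alternatives. Aldoc, an aldolase also used as an astrocyte marker, was lower than control with both, at 3.51 and 3.48, 2.36 and 2.65 with Mn and 1.61 and 1.54 with MPP+ (-0.93 ± 0.13). Of 19 hypoxia-responsive genes, 5 were higher with Mn and 0 with MPP+ (26.3% called, median -0.44), or 11 and 2 by limma at an unadjusted p below 0.05. Egln3, an oxygen-sensing prolyl hydroxylase, was at 1.66 and 1.80 in control, 2.64 and 2.61 with Mn and 1.62 and 1.61 with MPP+ (-1.01 ± 0.09, adjusted p = 0.00295). Ankrd37 was at -0.35 and -0.37 in control, -0.27 and -0.16 with Mn and -1.37 and -1.38 with MPP+ (-1.16 ± 0.09, adjusted p = 0.00213). Vegfa lay above control with both toxins, by 1.01 and 1.11, and differed by 0.11 (interval -0.16 to 0.38). The count of 5 fell without any single Mn or MPP+ array and rose without either control array, and Egln3 and Ankrd37 kept their calls throughout. Slc16a3 and Aldoc lost theirs without either MPP+ array, and Slc2a1 without Mn replicate 1 or either MPP+ array.

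Of 26 cholesterol genes, 3 were higher with Mn and 1 with MPP+ (15.4% called, beside 9.85% of all genes, median -0.15). Against control, 15 of them were lower with Mn and 20 with MPP+, beside 2.92% and 6.25% of all genes. Hmgcs1, an early enzyme of the pathway, was at 6.03 and 6.09 in control, 5.54 and 5.47 with Mn and 5.16 and 5.10 with MPP+ (-0.37 ± 0.09, adjusted p = 0.0479). Squalene synthase, Fdft1, was higher with MPP+ (0.86 ± 0.14, adjusted p = 0.018). Of 18 fatty acid genes, 5 were lower than control with Mn and 10 with MPP+. Between the toxins 11.1% were called, beside 9.85% of all genes, Fads3 higher with MPP+ (0.78 ± 0.12) and Acsl3 with Mn (-0.51 ± 0.09). Fdft1 lost its call without either MPP+ array, Fads3 without Mn replicate 1 or either MPP+ array, and Acsl3 without any single Mn, MPP+ or 3-NPA array.

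Genes of metal handling differed in a few members. Of 21 tested, 4 were higher with Mn and 1 with MPP+ (23.8% called, beside 9.85% of all genes, median -0.05). The transferrin receptor Tfrc, which is raised when cells sense little iron, was at 3.10 and 3.29 in control, 3.59 and 3.76 with Mn and 2.74 and 2.89 with MPP+ (-0.86 ± 0.12, adjusted p = 0.0117). The iron exporter ferroportin, Slc40a1, was at -1.74 and -1.56 in control, -2.42 and -2.57 with Mn and -1.84 and -1.83 with MPP+ (0.66 ± 0.10, adjusted p = 0.0165). Ceruloplasmin (Cp), a copper ferroxidase, was at -0.65 and -0.18 in control, -0.26 and -0.14 with Mn and -1.33 on both MPP+ arrays (-1.13 ± 0.16, adjusted p = 0.0124). Metallothioneins bind zinc and copper. Mt3 was at -4.77 and -4.78 in control, -2.52 and -2.79 with Mn and -3.34 and -3.30 with MPP+ (-0.66 ± 0.11, adjusted p = 0.0204), above control with both, where the control arrays were not well above background. Mt1 (0.34 ± 0.08, adjusted p = 0.0573) and Mt2A (-0.05 ± 0.10) were not called, though Mt1 passed the threshold in 2 alternatives. Also not called were the manganese importers Slc39a14 (-0.35 ± 0.21) and Slc11a2 (-0.06 ± 0.08) and the zinc exporter Slc30a1 (-0.06 ± 0.08). With the mean over the probes of a gene, Mt2A, Slc39a14 and Slc11a2 turned positive (0.01, 0.20 and 0.06). Tfrc lost its call without either MPP+ array, Cp without any single Mn or MPP+ array, and Slc40a1 without Mn replicate 2 or either MPP+ array. The manganese exporter Slc30a10 and the importer Slc39a8 were not well above background on any of these arrays.

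Organic cation carriers can move MPP+ across membranes. Of 6 tested, 2 were higher with Mn and 1 with MPP+. Slc29a4 (PMAT) was at 1.91 and 1.78 with Mn and 2.31 and 2.39 with MPP+ (0.50 ± 0.11, adjusted p = 0.0429). The efflux pump Abcb1b was at -0.71 and -0.68 in control, 1.41 and 1.12 with Mn and 0.63 and 0.54 with MPP+ (-0.68 ± 0.12, adjusted p = 0.0243). Slc47a1 had replicates that disagreed, -2.99 and -6.99 with Mn, and was not called. Slc29a4 lost its call without any single array, and Abcb1b without Mn replicate 1 or any single MPP+ or 3-NPA array.

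Of 27 NRF2 targets and glutathione genes, 2 (7.41%) were higher with MPP+, Sqstm1 (0.50 ± 0.09) and Mgst1 (0.69 ± 0.13). Over all genes, 9.85% were called. Nqo1, a standard target, was above control by 1.17 with Mn and 1.5 with MPP+ and differed by 0.33 ± 0.14 (adjusted p = 0.192). Haem oxygenase Hmox1 was at -0.45 ± 0.22 (adjusted p = 0.232). The small heat shock proteins Hspb8 (1.36 ± 0.15) and Cryab (0.92 ± 0.12) were higher with MPP+, 2 of 18 genes in that list (11.1%). Cryab was at 5.42 and 5.55 in control, 4.76 and 4.49 with Mn and 5.55 and 5.54 with MPP+, so the Mn arrays were the ones apart from control. Among 23 endoplasmic reticulum genes, 8.7% were called. Derl3 was higher with Mn (-1.89 ± 0.11, adjusted p = 0.00132), and Sel1l, which works in the same degradation pathway, was higher with MPP+ (0.63 ± 0.13). The chaperone BiP (Hspa5) differed by -0.04 ± 0.11. Derl3 kept its call without each array, while Hspb8 lost its call without MPP+ replicate 2 and Cryab without either MPP+ array. Sel1l lost its call without any single Mn, MPP+ or 3-NPA array. Sqstm1 and Mgst1 lost theirs without any single MPP+ or 3-NPA array, Sqstm1 also without Mn replicate 2 and Mgst1 also without Mn replicate 1.

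The p53 target Cdkn1a, an inhibitor of the cell cycle, was at 0.49 and 0.29 in control, 2.52 and 2.27 with Mn and 1.73 and 1.84 with MPP+ (-0.61 ± 0.13, adjusted p = 0.0378), above control with both. Of 20 p53 targets 1 was called in each direction (10% of them, beside 9.85% of all genes). DNA replication genes were within 2-fold for all 32 tested and mitosis genes for all 29, with 1 called in each list (3.12% and 3.45%). These were Mcm3 at -0.49 ± 0.09 and Kif23 at -0.42 ± 0.09, both higher with Mn. Of 13 BCL2 family genes, 1 (7.69%), Hrk, a neuronal activator of cell death, was called. It was at -6.74 and -6.63 in control, not well above background, -4.91 and -4.83 with Mn and -3.54 and -3.65 with MPP+ (1.28 ± 0.09, adjusted p = 0.00184). The lowest signal well above background was -4.785 and -4.419 on the control arrays. The control can thus not be placed below Mn for this gene. Of 31 lysosome and autophagy genes, 9.68% were called, 1 higher with MPP+ and 2 with Mn, Ulk1 (-0.46 ± 0.10) and Map1lc3b (-0.43 ± 0.10). Hrk lost its call with the mean over its probes (0.43, adjusted p = 0.0852), and normexp gave 0.53. Mcm3, Kif23, Ulk1 and Map1lc3b lost their calls without any single Mn, MPP+ or 3-NPA array, and Cdkn1a without Mn replicate 1 or any single MPP+ or 3-NPA array.

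Of 13 dopaminergic genes, 1 (7.69%) was called between the toxins, beside 9.85% of all genes. Th, the rate-limiting enzyme of dopamine synthesis, was at -1.84 and -1.93 in control, -1.87 and -2.02 with Mn and -1.93 and -2.02 with MPP+, with overlapping arrays and a difference of -0.03 ± 0.09 (adjusted p = 0.875), which turned to 0.01 when arrays were scaled to their medians. The vesicular monoamine transporter Slc18a2 was at -3.17 and -3.18 with Mn and -3.62 and -3.75 with MPP+ and missed the threshold (-0.51 ± 0.12, adjusted p = 0.0511), which it passed in 6 alternatives (lowest adjusted p = 0.036). The transcription factor gene Nr4a2 differed by -0.09 ± 0.12 and the decarboxylase Ddc by -0.50 ± 0.33, with an interval of -1.30 to 0.31 that does not exclude 2-fold. Pitx3, a transcription factor of midbrain dopaminergic neurons, was called as higher with MPP+ (adjusted p = 0.029) but was not well above background with Mn, so its bound of 0.92 is the value. Normexp gave 0.13 and no call. The call was also lost without any single Mn, MPP+ or 3-NPA array, and that of Pink1, given next, without Mn replicate 1 or either MPP+ array. Of 10 genes linked to Parkinson disease, 1 (10%) was called, Pink1, a kinase that marks damaged mitochondria. It was at 0.75 and 0.65 in control, 1.23 and 1.14 with Mn and 0.55 and 0.63 with MPP+ (-0.60 ± 0.09, adjusted p = 0.0147). Park7 (-0.10 ± 0.09) was not called, and Lrrk2 was not well above background on any of these arrays.

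Many neural identity genes were not tested, so the comparison covers 5 of 10 progenitor markers and 4 of 17 neuronal markers. Of the 5 progenitor markers, 2 were higher with Mn (40%, beside 9.85% of all genes, median -0.43). They were Nes (-0.47 ± 0.09, adjusted p = 0.0265) and Notch1 (-0.50 ± 0.08, adjusted p = 0.018). Nes was at 2.21 and 2.23 in control, 2.70 and 2.59 with Mn and 2.15 and 2.21 with MPP+. Both calls were lost without Mn replicate 1 or any single MPP+ or 3-NPA array. None of 4 neuronal, 8 oligodendrocyte and 5 endothelial markers was called by limma, and 0 had an unadjusted p below 0.05, among them the neuronal tubulin Tubb3 (-0.05 ± 0.15). The defining markers Sox2 and Gfap were not well above background on both arrays of either toxin. In bulk RNA, fewer cells of a kind and less RNA per cell cannot be told apart.

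**Figure D5:**
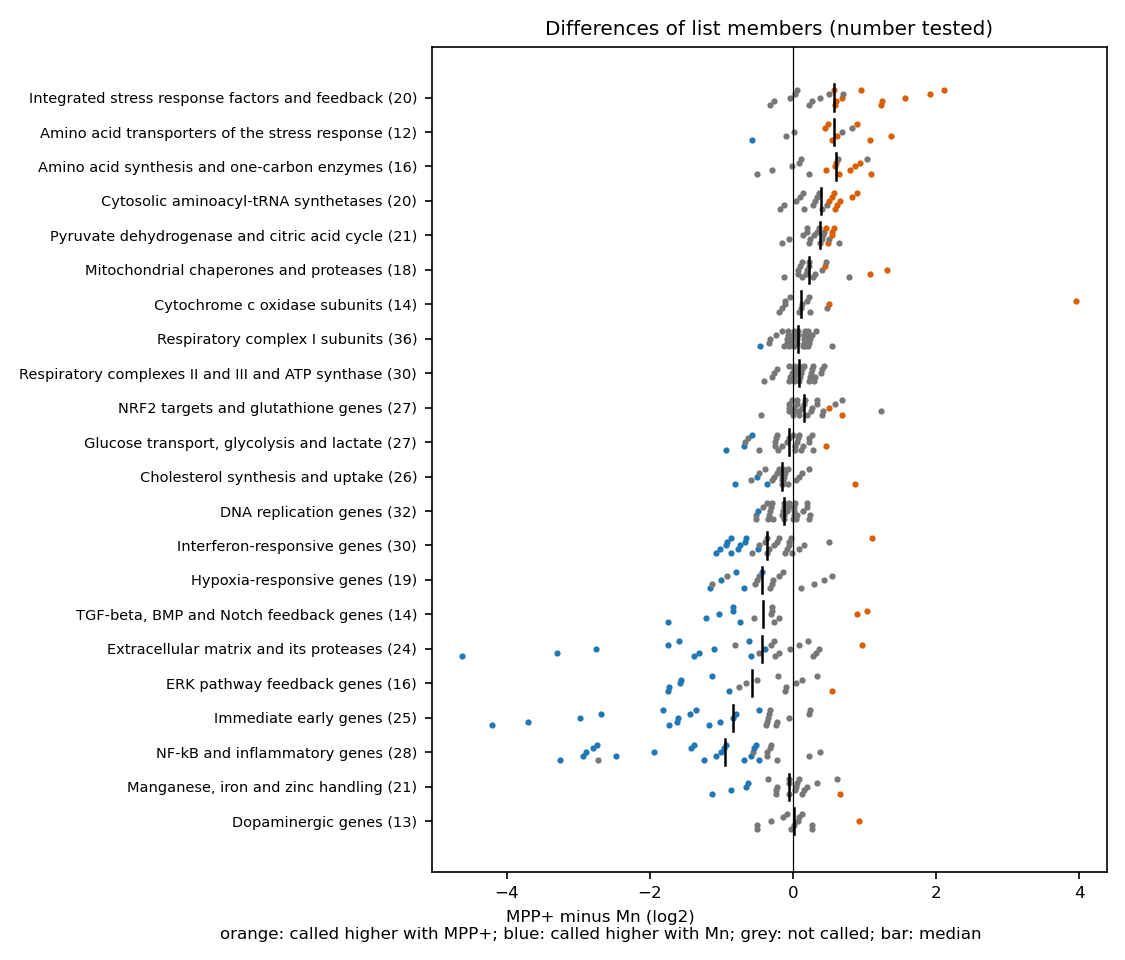
Differences between MPP+ and Mn (log2, x axis) for the tested members of 22 gene lists (y axis, number tested in brackets); each point is 1 gene, orange where called higher with MPP+, blue where called higher with Mn and grey where not called, and bars are list medians. The medians of the stress response, amino acid and synthetase lists lie to the right of 0 (0.39 to 0.59) and those of the immediate early and NF-kB lists to the left (-0.84 and -0.95), while the members of the respiratory chain lists lie near 0 apart from Cox6a2.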

How the data were processed

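Arrays were scanned and extracted with Agilent Feature Extraction 11.5.1.1, per the file headers. The intensity used is Agilent's processed signal, which had its background subtracted and its spatial trend removed on each array, and the deposited headers show no step that scales arrays to each other. The authors also deposited a table of log2 values, used as an alternative. The tool that made it is not given in the sources used here. Here, control spots and outlier spots were left out, the log2 processed signal was averaged over the spots of a probe, and each array's 75th percentile over 30328 probes was subtracted. A probe was kept where more than 0.5 of its spots were well above background on both arrays of Mn or of MPP+ (18814 probes). The brightest kept probe stood for a gene. Of the probes, 18345 (60.5%) matched RefSeq. Synm, with probes called in opposite directions, is the only such gene.

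All 8 arrays entered 1 limma (3.58.1, R 4.3.3) fit of group means, with Benjamini-Hochberg adjustment over 16360 genes (4 residual degrees of freedom, 2.15 prior). Named genes were the 12 largest per direction among called genes bright in both groups, 4 by bound per direction, up to 3 called per list, preset genes, and members showing a list's range. The members and the 39 lists were chosen with earlier results of these data known. No list was tested as a set, and some members counted in the lists are not reported here by name. Motifs were counted in RefSeq GRCr8 promoters. Also counted were the antioxidant response element TGACNNNGC, in 4 of 24 promoters of the NRF2 list (16.7%) and 12.2% of all promoters, and TGACGTCA, in 1 of 16 promoters of the stress response factors (6.25%) and 1.91% of all. Alternatives covered background correction, scaling, probe filters, probe choice, variance models, the arrays fitted and leaving out each array.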

Additional observations from a re-analysis of the deposited data

How the results depend on the processing

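The number of arrays limits precision: leaving out 1 array moved the count of called genes from 1612 to between 241 and 1838, the count higher with MPP+ to between 73 and 871, the count higher with Mn to between 168 and 967, and the count at least 2-fold apart to between 218 and 424. Leaving out 1 control or 3-NPA array acts as leaving out its group, since a lone array adds nothing to the spread. Calls numbered 418 (153 higher with MPP+, 265 with Mn) with only the 4 arrays of the 2 toxins, 749 (310 and 439) without the 3-NPA group, and 579 (201 and 378) with no filter on dim probes, which tested 26212 genes. The balance of 765 higher with MPP+ against 847 higher with Mn turned to 610 against 531 with median scaling and to 1192 against 1168 with trend and robust variances, and with the normexp correction 168 were called and at least 2-fold apart. The cause of these shifts was not tested, beyond the fewer arrays and added genes named. Genes within 2-fold numbered 11497 to 15284. Array weights, chosen after seeing the data, gave 1708 calls. Replicate numbers were not taken to pair the samples, since deviations of same-numbered arrays correlated at 0.094 for Mn with MPP+ and at -0.026 to 0.029 for control with the other groups, though at 0.514 for Mn with 3-NPA and 0.103 for MPP+ with 3-NPA. The replicate block gave 1351 calls. Reversals concerned uncalled genes: Th became 0.01 with median scaling. Leaving out 1 array moved Th between -0.10 and 0.04, Nr4a2 between -0.23 and 0.05 and Hspa5 between -0.15 and 0.07. With the mean over probes, Mt2A became 0.01, Nr4a2 0.06, Slc11a2 0.06 and Slc39a14 0.20.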

Other observations

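Of the 1612 genes called between MPP+ and Mn, 319 had no symbol, out of 4731 such genes tested, and 32 of them were at least 2-fold higher with each toxin. The measured differences of 320 genes were 2-fold or more without being called. Among these was Tvp23a, chosen after its values were seen, with the largest measured difference in the direction of MPP+ (4.40, adjusted p = 0.0659). It was not well above background on either Mn array, and its MPP+ arrays, at -4.14 and -1.08, disagreed.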
